A study of Mus musculus with 14 samples.

Results

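Respiratory complex I is the NADH dehydrogenase of the mitochondrial inner membrane, and its nuclear genes carry symbols that begin with Nduf. Members were the rows of the deposited count table whose Ensembl ID is a protein-coding gene with such a symbol in GENCODE vM21. This gave 46 of 54446 genes, on 17 chromosomes, of which 38 carry a subunit symbol and 8 carry the symbol Ndufaf of an assembly factor. All 46 passed the filter on low counts, and the lowest count of a member in any library was 22.

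The study asked how an active YAP and the muscle transcription factor MEF2A change gene expression in the young mouse heart. Wild-type ICR mice were given AAV9 vectors intraperitoneally on postnatal day 7, at 1e+11 genome copies of each virus, and hearts were taken on postnatal day 12. There were 3 libraries from mice given YAP5SA, a YAP form with serine-to-alanine changes that resists Hippo inhibition, 4 from mice given human MEF2A, 2 from mice given both viruses (YAP5SA_MEF2A) and 5 Control libraries. Both transgenes were driven by the cTnT promoter, which is active in cardiomyocytes, and Control mice received no virus, so an effect of AAV itself cannot be told apart from that of its cargo. Nuclei of whole hearts were enriched for cardiomyocytes by the nuclear protein PCM1, so the values are levels of polyadenylated RNA in preparations of nuclei. Mitochondrially encoded transcripts made up 3.80% to 67.5% of the counts by library. The RNA is therefore not all nuclear, and the part from outside nuclei may differ between libraries. The labels do not say whether each library came from a separate animal, and p-values therefore measure the spread between these libraries.

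Complex I takes electrons from NADH in the N module, passes them along iron-sulfur clusters to ubiquinone in the Q module, and moves protons through the P modules in the membrane. A core shared with bacteria does the catalysis, and its subunits are split between the nucleus and mitochondrial DNA. Accessory subunits surround the core, and assembly factors join the modules without staying in the finished enzyme. Cardiomyocytes depend on this enzyme for most of their ATP after birth. The members comprised 7 nuclear core subunits, 29 accessory subunits, and Ndufa4 and its relative Ndufa4l2, which are kept apart because the Ndufa4 protein is now placed in complex IV.

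Libraries held 16171068 to 24027622 counts. Mitochondrially encoded transcripts made up 32.2% of the counts in YAP5SA 3, 60.7% in Control 1 and 67.5% in Control 2, and 3.80% to 23.2% in the other 11. Cytosolic ribosomal protein genes, 36 in number, summed to 6928 counts per 1000000 (CPM, on scaled totals) in YAP5SA 3, 4713 in Control 1 and 5213 in Control 2, and to 2139 to 4068 CPM elsewhere. Core and accessory medians and some counts of calls are therefore also given without them. Module results, counts of members that did not overlap, other gene lists and markers are given only with all libraries. Mouse Yap1 reached 39.3 to 76.3 CPM in YAP5SA libraries and 49.9 to 77.3 CPM in Control libraries, and mouse Mef2a 569.8 to 623 CPM in MEF2A libraries and 509.5 to 607 CPM in Control libraries, so these rows do not check the labels. Transcripts of Xist and the Y chromosome marked 3 male YAP5SA libraries, 1 male and 3 female MEF2A libraries, 2 female YAP5SA_MEF2A libraries, and 3 male and 2 female Control libraries.

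The nuclear core was lower in hearts given YAP5SA. Its 7 genes summed to 711, 923 and 756 CPM in YAP5SA libraries 1 to 3, against 1485, 1289, 1797, 1335 and 1279 CPM in Control libraries 1 to 5. MEF2A libraries held 1517, 1469, 1507 and 1806 CPM, and YAP5SA_MEF2A libraries held 907 and 905 CPM. The means were 797 ± 112 CPM in YAP5SA libraries and 1437 ± 218 CPM in Control libraries (SD, n = 3 and 5). Every library that received YAP5SA lay below every library that did not. Of the 46 members, edgeR's quasi-likelihood test with Benjamini-Hochberg adjustment called 8 lower and 0 higher in YAP5SA against Control, where it called 9.86% of all 17987 genes tested, 4.17% lower and 5.69% higher. The 8 were 5 of the 7 core subunits, 2 of the 29 accessory subunits and 1 assembly factor. In YAP5SA against MEF2A it called 10 members lower and 1 higher, where 14.9% of genes were called, 7.12% lower and 7.77% higher, and 6 of the 10 were core subunits. The median log2 fold change over the 7 core genes was -0.79 against Control and -0.93 against MEF2A, and that over all genes tested was 0.06 and 0.08.

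Cell type markers also differed between the groups. The 9 cardiomyocyte markers summed to 25665 to 38370 CPM in YAP5SA libraries, 35802 to 40199 CPM in YAP5SA_MEF2A libraries, 78330 to 79770 CPM in MEF2A libraries and 48359 to 81334 CPM in Control libraries. Of these 9 genes, 3 were called lower in YAP5SA against Control and 7 in YAP5SA against MEF2A, and 0 were at 0 in every library. The 8 macrophage markers summed to 78.8 to 938 CPM in YAP5SA libraries and 53.1 to 185 CPM in Control libraries, with 1 called higher, and the 8 endothelial markers to 143 to 248 CPM and 214 to 486 CPM, with 3 called lower. The 6 mural cell markers summed to 555 to 1234 CPM in YAP5SA libraries and 358 to 527 CPM in Control libraries, which did not overlap, with 1 called higher. The 8 fibroblast markers summed to 1733 to 3083 CPM and 1264 to 2163 CPM, and the 5 erythroid markers, of which 4 were tested, to 51.3 to 325 CPM and 155 to 450.03 CPM, and no gene of either list passed the edgeR threshold. In YAP5SA against MEF2A, 4 macrophage, 3 fibroblast and 1 mural cell markers were called higher and 2 endothelial markers lower. The part of these shifts in the complex I result was not tested, and in bulk nuclei fewer cardiomyocyte nuclei and less RNA per nucleus cannot be told apart.

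**Figure D1:**
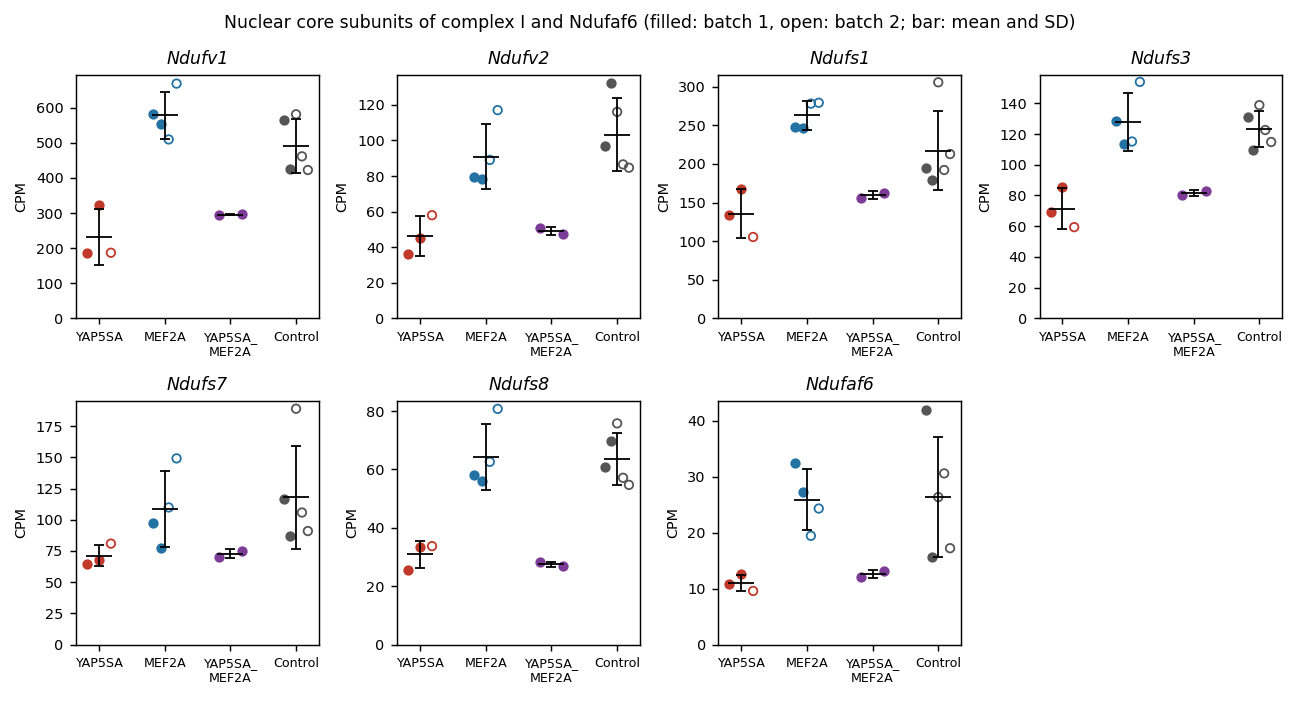
CPM of 6 nuclear core subunits and Ndufaf6 in each library, by group, with filled points for batch 1, open points for batch 2, and bars for the mean and SD (n = 3, 4, 2 and 5). All YAP5SA points lie below all Control points in each of the 7 panels.

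In the N module, Ndufv1 binds the flavin that takes the electrons of NADH. It had 185, 323 and 187 CPM in YAP5SA libraries, 582, 553, 509.9 and 669 CPM in MEF2A libraries, 294 and 297 CPM in YAP5SA_MEF2A libraries, and 565, 426, 582, 462 and 423 CPM in Control libraries. No YAP5SA or YAP5SA_MEF2A library reached the lowest library of the other groups. On the log2 scale Ndufv1 fell by 1.11 ± 0.22 (SE) in YAP5SA against Control (edgeR adjusted p = 0.00398) and by 1.34 ± 0.22 in YAP5SA against MEF2A (adjusted p = 0.00103), and leaving out any 1 library ended neither call. Per kilobase of exon, Ndufv1 had the highest level of the 46 members, 164 CPM per kb averaged over all libraries.

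Ndufv2 sits beside Ndufv1 and holds an iron-sulfur cluster. Its level was 35.9, 44.9 and 57.9 CPM in YAP5SA libraries, 79.6, 78.1, 89.1 and 117 CPM in MEF2A libraries, 50.7 and 47.3 CPM in YAP5SA_MEF2A libraries, and 96.9, 132, 116, 86.5 and 84.7 CPM in Control libraries. The groups with YAP5SA did not overlap those without it. Its log2 fold change was -1.14 ± 0.21 in YAP5SA against Control (edgeR adjusted p = 0.00294), called without any 1 library, and -0.95 ± 0.22 against MEF2A (adjusted p = 0.008), which was 0.0519 without YAP5SA 1.

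Ndufs1, the large subunit that carries most clusters of the N module, had 134, 168 and 105 CPM in YAP5SA libraries, 247, 246, 278 and 279 CPM in MEF2A libraries, 156 and 163 CPM in YAP5SA_MEF2A libraries, and 195, 179, 306, 192 and 213 CPM in Control libraries. The YAP5SA values lay below all others outside YAP5SA_MEF2A. Against Control the log2 fold change was -0.64 ± 0.21 and missed the threshold (edgeR adjusted p = 0.0611). Against MEF2A it was -0.93 ± 0.21 (adjusted p = 0.008), and 0.0819 was the adjusted p without YAP5SA 3.

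In the Q module, Ndufs8 holds iron-sulfur clusters on the way to ubiquinone. It had 25.6, 33.4 and 33.7 CPM in YAP5SA libraries, 58.0, 55.9, 62.6 and 80.8 CPM in MEF2A libraries, 28.2 and 26.9 CPM in YAP5SA_MEF2A libraries, and 60.8, 69.9, 75.8, 57.2 and 54.7 CPM in Control libraries. All 5 libraries with YAP5SA lay below all 9 without it. Ndufs8 was the 1 member that the main edgeR fit called in 4 comparisons. In YAP5SA the log2 fold change of Ndufs8 was -1.01 ± 0.19 against Control (edgeR adjusted p = 0.00321) and -1.03 ± 0.20 against MEF2A (adjusted p = 0.0026), and both calls held without any 1 library. It was -1.13 ± 0.24 in YAP5SA_MEF2A against Control (adjusted p = 0.0178) and -1.15 ± 0.24 in YAP5SA_MEF2A against MEF2A (adjusted p = 0.0158).

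Ndufs7 holds the last iron-sulfur cluster before ubiquinone. Ndufs7 had 64.8, 67.6 and 80.9 CPM in YAP5SA libraries, 97.3, 77.1, 109.8 and 149 CPM in MEF2A libraries, 70.4 and 75.3 CPM in YAP5SA_MEF2A libraries, and 117, 87.2, 189, 106 and 90.9 CPM in Control libraries. YAP5SA lay below Control but overlapped MEF2A, and neither log2 fold change, -0.62 ± 0.23 and -0.52 ± 0.23, passed the threshold (edgeR adjusted p = 0.0946 and 0.146).

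Ndufs3 belongs to the Q module and enters assembly early. It had 69.2, 85.6 and 59.3 CPM in YAP5SA libraries, 128, 114, 115 and 154 CPM in MEF2A libraries, 80.3 and 82.8 CPM in YAP5SA_MEF2A libraries, and 131, 109, 139, 123 and 115 CPM in Control libraries. Again the libraries with YAP5SA lay wholly below the others. For Ndufs3 the log2 fold change in YAP5SA was -0.79 ± 0.18 against Control (edgeR adjusted p = 0.0112) and -0.84 ± 0.19 against MEF2A (adjusted p = 0.00653). Without YAP5SA 3 the adjusted p was 0.119 and 0.067, and without YAP5SA 1 it was 0.0512 against Control. The libraries do not record strand, and 6.2% of the exonic bases of Ndufs1 and 4.0% of those of Ndufs3 are shared with genes on the opposite strand, so part of their counts is uncertain.

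The sequence before the start is shown for 4 core genes that lay below Control together and lie on 3 different chromosomes. It comes from the RefSeq table on GRCm38.p6, with bases in annotated exons left out. Ndufs3 also lay below Control, and its stretch of 62 bases is not shown. Of the 4 genes shown, Ndufs7 was not called. Capitals mark the letters GGAATG or, on the other strand, CATTCC, which TEAD factors, the DNA-binding partners of YAP, are known to bind.
Ndufv1, chr19:4012807-4013005, minus strand: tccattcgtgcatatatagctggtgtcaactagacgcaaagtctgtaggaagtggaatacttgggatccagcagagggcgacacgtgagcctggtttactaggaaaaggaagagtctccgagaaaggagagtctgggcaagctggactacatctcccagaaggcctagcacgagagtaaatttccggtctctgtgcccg
Ndufv2, chr17:66101560-66101809, minus strand: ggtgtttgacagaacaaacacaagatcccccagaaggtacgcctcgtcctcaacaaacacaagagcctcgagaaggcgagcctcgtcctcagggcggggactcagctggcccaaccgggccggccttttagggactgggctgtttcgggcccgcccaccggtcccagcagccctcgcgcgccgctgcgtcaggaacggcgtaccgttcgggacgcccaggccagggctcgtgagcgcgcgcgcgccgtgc
Ndufs8, chr19:3912775-3913024, minus strand: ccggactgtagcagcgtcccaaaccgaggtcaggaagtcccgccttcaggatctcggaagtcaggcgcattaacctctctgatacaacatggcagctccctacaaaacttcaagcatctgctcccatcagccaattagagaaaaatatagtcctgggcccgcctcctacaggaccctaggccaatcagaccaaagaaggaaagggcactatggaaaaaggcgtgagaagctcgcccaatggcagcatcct
Ndufs7, chr10:80249205-80249311, plus strand: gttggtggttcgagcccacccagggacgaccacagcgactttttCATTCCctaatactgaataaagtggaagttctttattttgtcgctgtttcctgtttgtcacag
The first 3 end directly before the start of the GENCODE gene. The last lies inside the GENCODE gene Ndufs7, in a stretch with no annotated exon.

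Windows of 300 bases, 250 before the start and 50 after it, were found for 40 members, with 42 windows in all, 5 of them for core genes. The TEAD letters were in 5 of the 42 (11.9%), 1 of them in a core gene, against 14.7% of all 32851 windows. TGCGCA, the same on both strands and part of the site of NRF1, a factor known for driving respiratory genes, was in 12 of 42 (28.6%) and in 0 of the 5 core windows, against 7.76% of all windows. CCGGAAG or its complement, known from GABP sites, was in 6 (14.3%), 2 of them core, against 8.86%, and AAGGTCA or its complement, known from oestrogen-related receptor sites, in 3 (7.14%) against 4.72%. These are matches of letters in a short window and show no binding.

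Accessory subunits showed no single direction. In YAP5SA against Control, 23 of the 29 had a log2 fold change below 0, with a median of -0.25. Of the 29, 2 were called lower and 0 higher, where 4.17% and 5.69% of all genes were. Against MEF2A, 19 of the 29 were above 0, with a median of 0.25. There 3 were called lower and 1 higher, where 7.12% and 7.77% of all genes were. Whether these counts differ from the shares of all genes was not tested. The 29 accessory subunits summed to 650.2, 649 and 1411 CPM in YAP5SA libraries, 744, 855, 857 and 1132 CPM in MEF2A libraries, 832 and 676 CPM in YAP5SA_MEF2A libraries, and 1121, 1208, 829.5, 1054 and 1236 CPM in Control libraries. YAP5SA 1 and 2 lay below all Control libraries and YAP5SA 3 above them. YAP5SA 3 was the highest of its group for 28 of the 29 accessory subunits and above every Control library for 15, whereas among the 7 core subunits it was the highest of its group for 4 and above every Control library for 0. Core subunits accordingly made up 52.2%, 58.7% and 34.9% of the counts of these 36 genes in YAP5SA libraries 1 to 3, and 50.9% to 68.4% in Control libraries. The exact binomial 95% interval for YAP5SA 3 was 34.4% to 35.3%, which covers counting error only.

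Without YAP5SA 3, the core and accessory medians against Control were -0.63 and -0.69, with 3 core and 4 accessory subunits called, and those against MEF2A were -0.73 and -0.40. Without Controls 1 and 2 they were -0.84 and 0.27 against Control, with 5 core subunits and 1 accessory subunit called. In batch 1 alone, which holds YAP5SA 1 and 2 and Controls 1 and 2, they were -0.68 and -0.93, with 4 core and 12 accessory subunits called. The accessory median against MEF2A was also below 0 in batch 1 alone (-0.20) and with a term for sex (-0.11). Without Controls 1 and 2 and YAP5SA 3 it was -0.17. Every remaining alternative left it above 0, so its sign depends on the libraries and terms used. Batch 2 holds 1 YAP5SA library and gives no test of its own. The shares of all genes called in these subsets are not given here. Whether core and accessory subunits differ in their response was not tested.

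**Figure D2:**
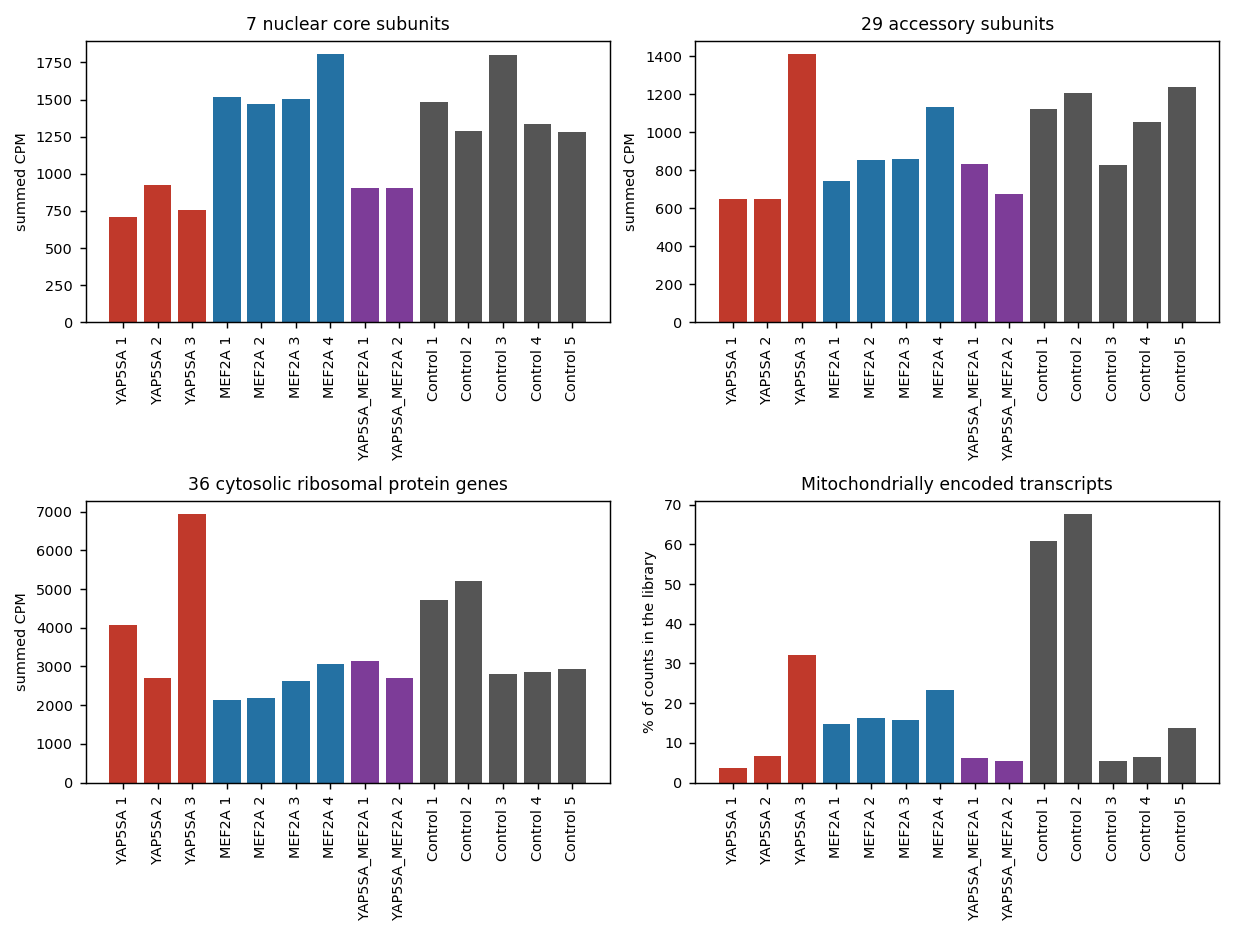
Summed CPM of the 7 nuclear core subunits, the 29 accessory subunits and 36 cytosolic ribosomal protein genes, and the percentage of counts from mitochondrially encoded transcripts, in each of the 14 libraries. The core sum is at most 923 in the 5 libraries with YAP5SA and at least 1279 in the other 9, while the accessory sum is highest in YAP5SA 3, which also has the highest ribosomal protein sum.

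Ndufb10, an accessory subunit of the distal membrane arm, was the accessory member with the smallest p. It had 41.4, 50.9 and 64.9 CPM in YAP5SA libraries, 87.1, 112, 88.6 and 113 CPM in MEF2A libraries, 56.3 and 44.0 CPM in YAP5SA_MEF2A libraries, and 114, 92.3, 77.8, 107 and 107 CPM in Control libraries. The 5 libraries with YAP5SA lay below the other 9. Its log2 fold change was -0.91 ± 0.20 in YAP5SA against Control (edgeR adjusted p = 0.0081, and 0.058 without YAP5SA 1) and -0.93 ± 0.21 against MEF2A (adjusted p = 0.00645).

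Ndufa10, an accessory subunit of the proximal membrane arm with the fold of a nucleoside kinase, was narrow within groups. Its level was 77.3, 76.9 and 81.3 CPM in YAP5SA libraries, 109.8, 131, 122 and 144 CPM in MEF2A libraries, 71.9 and 69.1 CPM in YAP5SA_MEF2A libraries, and 120.5, 103, 121, 128 and 115 CPM in Control libraries. The YAP5SA_MEF2A values lay below the YAP5SA values, and both lay below the rest. Its log2 fold change was -0.55 ± 0.16 in YAP5SA against Control (edgeR adjusted p = 0.0325), -0.67 ± 0.16 against MEF2A (adjusted p = 0.0102) and -0.79 ± 0.19 in YAP5SA_MEF2A against MEF2A (adjusted p = 0.0396). The call against Control was lost without any of Control 1 (adjusted p = 0.0714), Control 4 (0.0552), YAP5SA 1 (0.0903), YAP5SA 3 (0.135), YAP5SA_MEF2A 1 (0.0794) and YAP5SA_MEF2A 2 (0.079), and that of YAP5SA against MEF2A without YAP5SA 3 (0.0542).

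Ndufb5, a distal membrane arm subunit, had 25.4, 31.0 and 38.4 CPM in YAP5SA libraries, 47.0, 43.7, 53.3 and 56.8 CPM in MEF2A libraries, 33.3 and 28.9 CPM in YAP5SA_MEF2A libraries, and 59.9, 48.0, 45.4, 44.2 and 45.9 CPM in Control libraries. YAP5SA was wholly below MEF2A and Control. The log2 fold change against MEF2A was -0.65 ± 0.20 (edgeR adjusted p = 0.0344), and that against Control was -0.61 ± 0.19 (adjusted p = 0.0533). The call was lost without MEF2A 1 or 3 (adjusted p = 0.0595 each), MEF2A 4 (0.0697), YAP5SA 1 (0.149) or either YAP5SA_MEF2A library (0.0617 each). It shares 12.3% of its exonic bases with Mrpl47 on the opposite strand.

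Ndufc1, a small subunit of the proximal membrane arm, was the 1 member that the main edgeR fit called higher in any comparison. Some alternative settings also called Ndufb2, Ndufa1 or Ndufa4 higher in YAP5SA against MEF2A. It had 33.2, 21.1 and 78.5 CPM in YAP5SA libraries, 13.3, 17.4, 23.7 and 27.7 CPM in MEF2A libraries, 35.4 and 24.1 CPM in YAP5SA_MEF2A libraries, and 25.1, 31.3, 22.2, 34.0 and 53.0 CPM in Control libraries. YAP5SA and MEF2A overlapped, and the highest value was that of YAP5SA 3. The log2 fold change in YAP5SA against MEF2A was 1.14 ± 0.30 (edgeR adjusted p = 0.0173). It was 0.72 without YAP5SA 3 (adjusted p = 0.253), and the call was also lost without YAP5SA 1 (0.0593), MEF2A 1 (0.0586) or MEF2A 3 (0.0579). A term for sex, no batch term, and a term for replicate number in place of batch each ended it too. So did batch 1 alone and leaving out Controls 1 and 2 and YAP5SA 3 together. The call held in 19 of 28 alternatives.

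**Figure D3:**
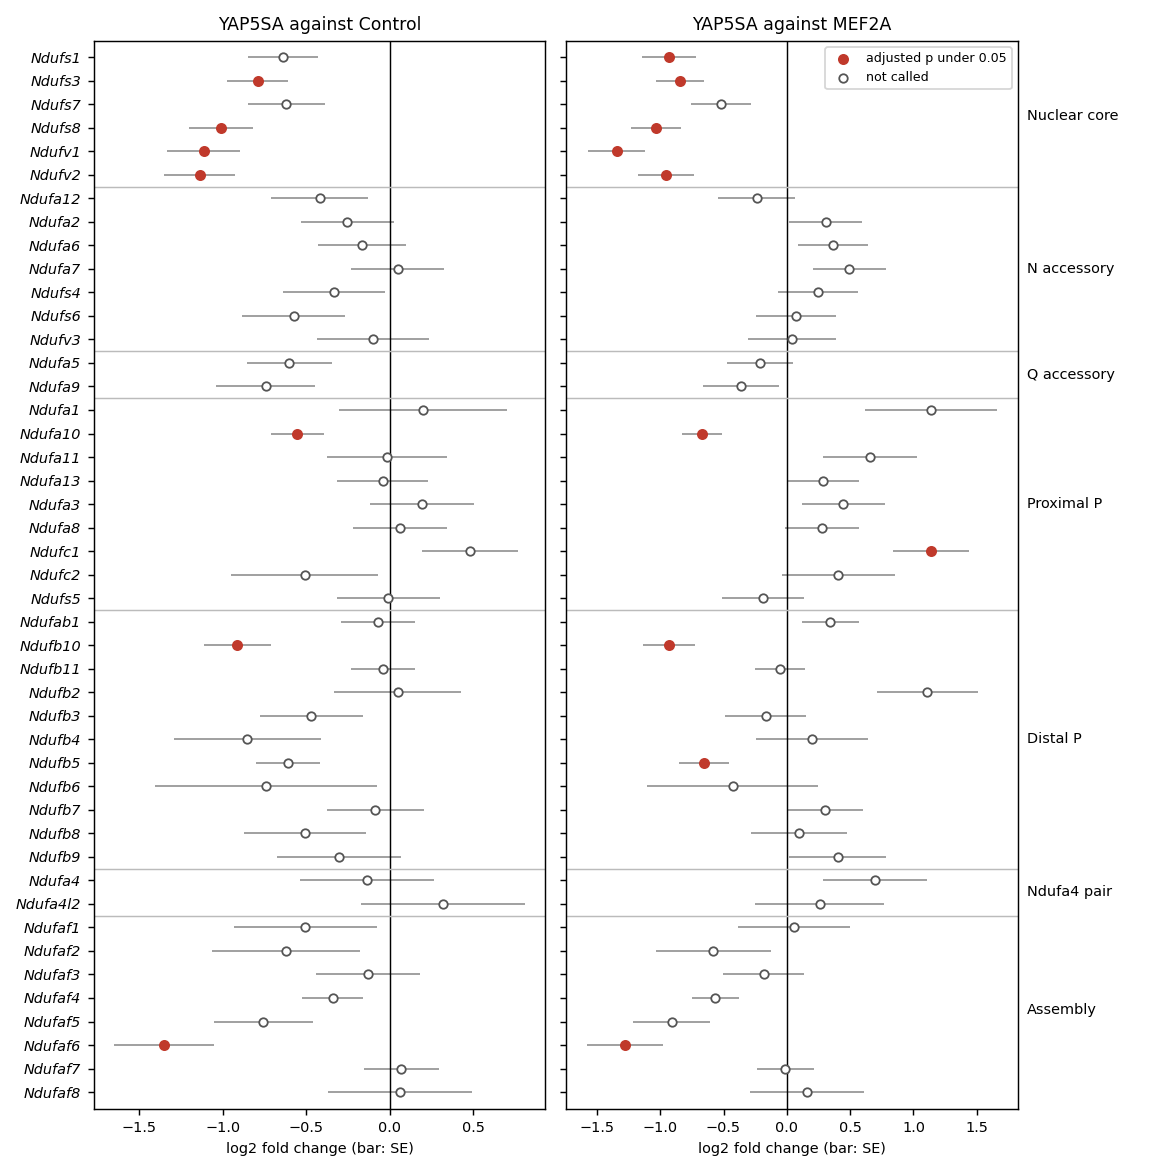
Log2 fold change with SE of 45 members in YAP5SA against Control (left) and YAP5SA against MEF2A (right), grouped by role, with filled points at edgeR adjusted p under 0.05. All 6 nuclear core subunits shown lie below 0 in both panels, and 4 and 5 of them are filled.

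By module, 2 of 10 N module, 3 of 6 Q module, 1 of 9 proximal P and 1 of 11 distal P subunits were called lower in YAP5SA against Control. All 6 Q module subunits lay below 0, with a median log2 fold change of -0.68, and all 6 had an unadjusted p under 0.05, where 11.3% of all genes were below 0 at that cut. The proximal P module had 4 subunits above 0 and 5 below, with a median of -0.01. Ndufb11, an X-linked distal subunit and the third by level per kilobase (77.4 CPM per kb), had 51.3, 50.1 and 109 CPM in YAP5SA libraries, 56.3, 71.5, 82.5 and 85.3 CPM in MEF2A libraries, 55.4 and 47.9 CPM in YAP5SA_MEF2A libraries, and 68.6, 70.8, 80.6, 70.7 and 84.1 CPM in Control libraries, so YAP5SA and Control overlapped through YAP5SA 3. It shares 12.9% of its exonic bases with Rbm10 on the opposite strand. Of all members, 11 lay wholly below Control in the YAP5SA libraries and 0 wholly above, where 5.13% and 8.51% of genes did. Against MEF2A, 12 lay wholly below and 2 wholly above, where 13.7% and 15.9% of genes did.

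Among the lowest members by level per kilobase were Ndufb2 (0.754 CPM per kb), Ndufaf2 (1.34) and Ndufa4l2 (3.72). Ndufb2, a distal subunit, had 5.20, 5.06 and 4.61 CPM in YAP5SA libraries, 2.29, 3.37, 1.73 and 1.52 CPM in MEF2A libraries, 6.48 and 6.69 CPM in YAP5SA_MEF2A libraries, and 5.55, 6.91, 2.20, 3.43 and 4.35 CPM in Control libraries. Libraries with YAP5SA lay above MEF2A libraries, with a log2 fold change of 1.11 ± 0.40 in YAP5SA against MEF2A (edgeR adjusted p = 0.0683). DESeq2 called Ndufb2 higher in YAP5SA against MEF2A and in YAP5SA_MEF2A against MEF2A. Ndufa4l2, known in other cells as a target of hypoxia signalling, had 4.69, 3.08 and 7.37 CPM in YAP5SA libraries, 2.29, 6.12, 2.88 and 5.59 CPM in MEF2A libraries, 2.75 and 1.95 CPM in YAP5SA_MEF2A libraries, and 5.10, 5.61, 1.59, 3.46 and 4.62 CPM in Control libraries. The YAP5SA_MEF2A values lay below those of YAP5SA and within the range of Control, and Ndufa4l2 was called in no comparison. Ndufa4 had 38.2, 29.9 and 105 CPM in YAP5SA libraries, 27.2, 27.9, 32.0 and 55.6 CPM in MEF2A libraries, 48.6 and 38.9 CPM in YAP5SA_MEF2A libraries, and 74.7, 87.9, 35.4, 47.5 and 63.7 CPM in Control libraries. All groups overlapped Control, and the main edgeR fit called Ndufa4 in no comparison either. Without a filter on low counts Ndufa4 was called higher in YAP5SA against MEF2A and lower in MEF2A against Control.

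Of the 8 assembly factors, 1 was called. Ndufaf6, needed for an early step that builds the membrane-bound Q module, had 10.8, 12.6 and 9.57 CPM in YAP5SA libraries, 32.5, 27.2, 19.4 and 24.3 CPM in MEF2A libraries, 12.1 and 13.1 CPM in YAP5SA_MEF2A libraries, and 41.9, 15.6, 26.4, 30.6 and 17.2 CPM in Control libraries. The 5 libraries with YAP5SA were below the other 9, and Control ranged widely. Its log2 fold change was -1.35 ± 0.30 in YAP5SA against Control (edgeR adjusted p = 0.0081) and -1.28 ± 0.30 against MEF2A (adjusted p = 0.00904), and without YAP5SA 3 the adjusted p was 0.0541 and 0.0519. Over the 8 factors, the median log2 fold change was -0.42 against Control and -0.37 against MEF2A, with 6 below 0 in each.

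Ndufaf5, which modifies an arginine of Ndufs7, had 7.94, 9.25 and 6.82 CPM in YAP5SA libraries, 16.3, 13.0, 13.4 and 16.5 CPM in MEF2A libraries, 13.5 and 9.37 CPM in YAP5SA_MEF2A libraries, and 18.02, 9.52, 9.22, 16.003 and 13.4 CPM in Control libraries. YAP5SA lay below MEF2A and overlapped Control, and the log2 fold change against MEF2A, -0.91 ± 0.30, missed the threshold (edgeR adjusted p = 0.0516). Ndufaf1, part of the membrane assembly complex with Ecsit, had 2.23, 4.40 and 8.77 CPM in YAP5SA libraries, 5.72, 3.43, 3.79 and 6.75 CPM in MEF2A libraries, 4.85 and 6.93 CPM in YAP5SA_MEF2A libraries, and 8.16, 10.04, 6.37, 5.51 and 6.32 CPM in Control libraries, and was called in no comparison. Ndufaf2, an assembly factor that acts late, had 2.03, 3.74 and 2.91 CPM in YAP5SA libraries, 2.67, 4.81, 5.04 and 5.65 CPM in MEF2A libraries, 2.83 and 2.76 CPM in YAP5SA_MEF2A libraries, and 2.49, 6.13, 5.67, 3.70 and 5.62 CPM in Control libraries. It shares 65.6% of its exonic bases with a gene on the opposite strand, so its level is uncertain. In all, 17 members share exonic bases with a gene on the opposite strand and 3 with one on the same strand.

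Assembly genes outside the Nduf symbols were followed in a list of 17. In YAP5SA against Control, 3 were called lower and 0 higher: Rtn4ip1, a mitochondrial oxidoreductase (log2 fold change -1.36 ± 0.24, edgeR adjusted p = 0.002), Ecsit, a partner of Ndufaf1 (-0.9997 ± 0.22, adjusted p = 0.00725), and Foxred1, a flavoprotein needed to assemble complex I (-0.98 ± 0.19, adjusted p = 0.00371). These 3 were also the genes of the list called against MEF2A, at -1.85, -1.37 and -1.27, and they were called lower in YAP5SA_MEF2A against MEF2A, at -1.60, -1.23 and -0.98. In YAP5SA_MEF2A against Control edgeR called 0 of the 17, with 5 at an unadjusted p under 0.05, DESeq2 called 3 and limma-voom 1, and the edgeR log2 fold changes of Rtn4ip1, Ecsit and Foxred1 were -1.11, -0.85 and -0.69. In MEF2A against Control all of these tools called 0, with 3 at an unadjusted p under 0.05 by edgeR. The 2 comparisons made against MEF2A share its libraries. The 7 complex I subunits encoded in mitochondrial DNA had a median log2 fold change of -1.49 in YAP5SA against Control and 0 were called by edgeR, DESeq2 or limma-voom, with 0 at an unadjusted p under 0.05. Their sum was 10279 to 124327 CPM in YAP5SA libraries and 19343 to 588520 CPM in Control libraries. Within each group it followed the mitochondrial share of the libraries. These transcripts are themselves counted in that share, so the shared order is partly built in, and the part of the share was not tested. Among 41 nuclear genes of complexes II to V that were tested, 5 were called lower and 0 higher against Control, with a median of -0.39. The 38 Nduf subunits had 7 called lower, 0 higher and a median of -0.38, near that of complexes II to V. Against MEF2A, complexes II to V had 6 called lower, 1 higher and a median of -0.18. There the 38 subunits had 9 called lower, 1 higher and a median of 0.08. Of all genes, edgeR called 4.17% lower in YAP5SA against Control and 7.12% against MEF2A. In YAP5SA_MEF2A it called 0.706% lower against MEF2A and 0.195% against Control, where DESeq2 called 1.87% lower. At an edgeR unadjusted p under 0.05, 5.45% of genes were lower in YAP5SA_MEF2A against Control and 3.85% in MEF2A against Control. The counts of the 17 at that cut are in either direction. The share for limma-voom is not given here.

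**Figure D4:**
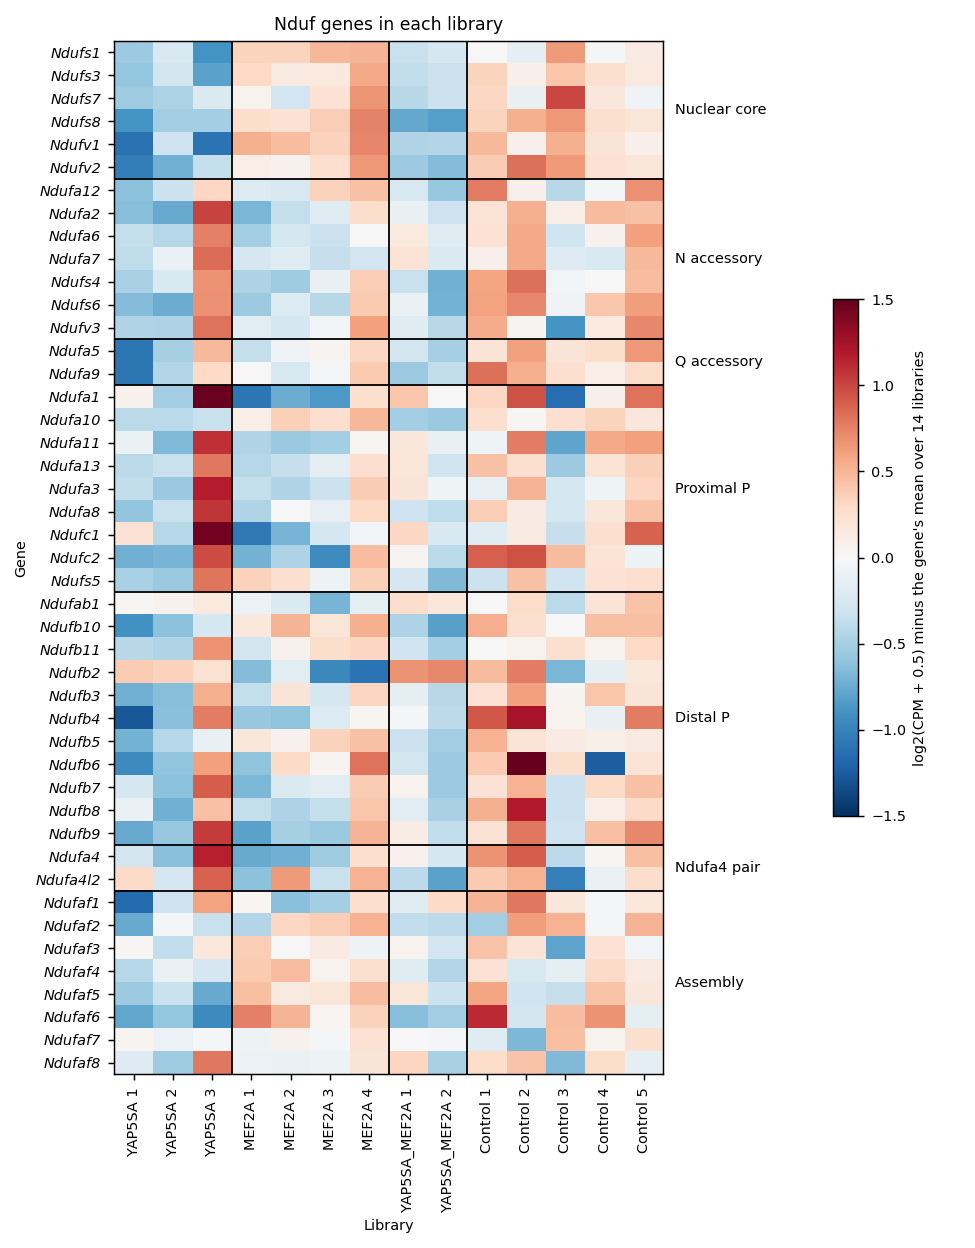
log2(CPM + 0.5) of 45 members in each of 14 libraries, less the gene's mean over the libraries, with groups from left to right YAP5SA, MEF2A, YAP5SA_MEF2A and Control, and colours that saturate at 1.5. The 5 columns with YAP5SA are blue across the 6 nuclear core subunits shown, and the column of YAP5SA 3 is red across most accessory subunits.

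In the hearts given MEF2A alone, no member passed the threshold. The edgeR test called 0 of 46 members in MEF2A against Control, where it called 3 of 17987 genes (0.0167%), and DESeq2 and limma-voom also called 0. At an unadjusted p under 0.05 there were 8 members, all subunits below 0, where 3.85% of all genes were below 0 at that cut. They were led by Ndufb2 (log2 fold change -1.06 ± 0.36, edgeR adjusted p = 0.602) and Ndufb4, a distal subunit (-1.05 ± 0.40, adjusted p = 0.612). The core median was 0.05 and the accessory median -0.39. Without Controls 1 and 2 the accessory median was 0.07. No member lay wholly below or above Control, where 0.945% and 1.88% of genes did.

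With both viruses the nuclear core sat near its level with YAP5SA alone, though the YAP5SA_MEF2A libraries were female and the YAP5SA libraries male. In YAP5SA_MEF2A against Control 1 member, Ndufs8, was called lower, where 1.36% of genes were called, 0.195% lower and 1.16% higher. That call was lost without Control 1 (adjusted p = 0.0507), YAP5SA_MEF2A 1 (0.255) or YAP5SA_MEF2A 2 (0.326). All 7 core subunits lay below 0, with a median log2 fold change of -0.60 and 5 at an unadjusted p under 0.05, where 5.45% of all genes were below 0 at that cut. DESeq2 called 6 members, all lower, where it called 1.87% of genes lower. In YAP5SA_MEF2A against MEF2A, 2 members were called lower, Ndufs8 and Ndufa10, where 2.32% of genes were called, 0.706% lower and 1.61% higher. Both calls were lost without either YAP5SA_MEF2A library, with adjusted p of 0.216 and 0.255 for Ndufs8 and 0.463 and 0.466 for Ndufa10, and that of Ndufa10 also without Control 4 (0.0535), Control 5 (0.0584), MEF2A 1 (0.0537), MEF2A 2 (0.112) or MEF2A 4 (0.0624). All YAP5SA_MEF2A libraries are in batch 1, so these comparisons lean on the batch term. Wholly below Control were 19 members and above it 0, where 8.43% and 14.9% of genes were, with 2 libraries in the group. Against MEF2A there were 15 below and 2 above, where 18.3% and 22.8% of genes were.

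Whether MEF2A altered the effect of YAP5SA could not be settled with these libraries. The groups are small, and the 3 YAP5SA libraries were male while the 2 YAP5SA_MEF2A libraries were female. A direct comparison of these groups therefore cannot tell sex apart from the second virus. In YAP5SA_MEF2A against YAP5SA, edgeR, DESeq2 and limma-voom each called 0 of 46 members, edgeR called 0% of genes, and 0 members had an unadjusted p under 0.05, where 2.87% of genes did. The core median was 0.18, with 6 of 7 genes above 0, and the smallest p belonged to Ndufa4l2 (log2 fold change -1.13 ± 0.66, edgeR adjusted p = 1). With a term for sex the core median was 0.41, with 0 of 7 genes below 0. Wholly below YAP5SA lay 2 members and wholly above it 3, where 8.79% and 11.2% of genes did. The interaction, the change of YAP5SA_MEF2A against YAP5SA less that of MEF2A against Control, also gave 0 called members by edgeR, DESeq2 and limma-voom, 0% of genes by edgeR, and 0 members at an unadjusted p under 0.05, where 2.45% of genes were. Its smallest p was that of Ndufb2 (log2 difference 1.23 ± 0.59, edgeR adjusted p = 1).

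The scale matters for the size of these values. On library totals without scaling factors, the median of all genes moved to 0.69 in YAP5SA against Control and 0.51 against MEF2A, 0 core subunits were called in either, and the core medians were -0.11 and -0.43. Relative to the median of all genes, the core lay at -0.80 and -0.94 on that scale, and at -0.85 and -1.01 on the scaled one. Leaving out Controls 1 and 2 and YAP5SA 3 together left 0 core subunits called against Control, with core and accessory medians of -0.68 and -0.32. Against MEF2A it left 4 core subunits called, with medians of -0.73 and -0.17. With a term for sex, 7 core subunits were called lower in both comparisons. For these alternatives the shares of all genes called are not given here.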

How the data were processed

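The authors deposited 1 table of raw counts, whole numbers of reads for each Ensembl gene in 14 libraries. Per the labels' protocols, the libraries were polyA-selected and non-directional. STAR, limma, edgeR and the build GRCm38 are named in the submitters' processing notes. Which versions and which annotation were used, and how reads were assigned to genes, is not given in the sources used here. The labels gave each library its group, its number and its batch. Among the columns of counts, 0 belonged to other samples. Gene symbols were matched by ID to GENCODE vM21, for 54409 of 54446 genes.

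Genes were kept by edgeR's filterByExpr (minimum count 10, total 15), which left 17987. Counts were scaled by TMM factors, and CPM used these scaled totals. All 14 libraries entered 1 robust quasi-likelihood fit in edgeR that modelled group plus batch. Contrasts were tested two-sided, with Benjamini-Hochberg adjustment over all genes, and called at an adjusted p under 0.05. The biological coefficient of variation was 0.503. The versions were edgeR 4.0.16, DESeq2 1.42.0 and limma 3.58.1 under R 4.3.3, and the fit was checked on simulated counts. Members, lists and tests were chosen with earlier results of these data known.

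Values per library are given for members called in any of 7 comparisons, for the subunit and assembly factor with the smallest p in each, and for the 3 highest and 3 lowest by CPM per kilobase of exon. Ndufs7 was added after its values were seen, to complete the core, as were Ndufb4 and single values of other members. Values of 1 core subunit are not reported here, and it is kept in sums, counts and medians. Alternatives covered scaling, filters, tool, batch, sex and replicate terms, subsets of libraries, and each library left out. Where 1 library of a group remained, it was assumed to vary like the other groups.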

Additional observations from a re-analysis of the deposited data

Results flagged for a closer look

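In 50 groups of 4 or 5 libraries examined for a library far from the rest, 4 were found, where chance gives about 1 in 20. Ndufb5 reached 59.9 CPM in Control 1, against 44.2 to 48.0 CPM in the other Control libraries. Ndufs1 reached 306 CPM in Control 3, against 179 to 213 CPM in the others. The 7 nuclear core subunits summed to 1806 CPM in MEF2A 4, against 1469 to 1517 CPM in the other MEF2A libraries. The mitochondrially encoded complex I subunits summed to 98893 CPM in the same library, against 57363 to 63613 CPM in the others.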

How the results depend on the processing

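Members called lower or higher moved with these choices. On library totals the count was 0 in YAP5SA against Control, 0 in YAP5SA_MEF2A against Control, 2 in YAP5SA against MEF2A and 0 in YAP5SA_MEF2A against MEF2A. Core subunits called were then 0 and 0, subunit medians 0.27, 0.43 (YAP5SA_MEF2A against Control) and 0.49 (YAP5SA_MEF2A against MEF2A), and Ndufa10 in YAP5SA against Control turned to 0.10. Without a filter on low counts there were 2 calls in MEF2A against Control, 3 in YAP5SA_MEF2A against Control and 4 in YAP5SA_MEF2A against MEF2A, and with a stricter filter 2 and 4 in the last 2. DESeq2 gave 6 and 8 there, no batch term 4 and 4, limma-voom 4 against MEF2A, and a term for sex 0 and 1. With only the groups compared, YAP5SA against Control had 4 calls, 3 of them core, and the YAP5SA_MEF2A comparisons 6 against Control and 12 against MEF2A. Batch 1 alone gave 17 calls in YAP5SA against Control with a subunit median of -0.89, 5 in MEF2A against Control, 10 in YAP5SA_MEF2A against Control, 5 in YAP5SA against MEF2A and 1 in YAP5SA_MEF2A against MEF2A, with an interaction median of 1.01. Without Controls 1 and 2, subunit medians were 0.23 in YAP5SA against Control and 0.13 in YAP5SA_MEF2A against Control, calls were 0 in YAP5SA_MEF2A against Control and 4 against MEF2A, and Ndufaf1 in MEF2A against Control turned to 0.0496. Without those and YAP5SA 3, calls were 0 in YAP5SA against Control with 0 core, 0 in YAP5SA_MEF2A against Control and 6 in YAP5SA against MEF2A. The shares of all genes called under these settings, and under those below, are not given here. The counts therefore do not show whether the members moved apart from other genes. The cause of these moves was not tested.

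In 16 same-numbered pairs of libraries, deviations from the group means had correlations from -0.18 to 0.09. Pairs with different numbers were not compared, so whether the numbers mark a shared litter or day cannot be told. With the replicate block in place of batch, calls were 5 in YAP5SA against Control and 0 in YAP5SA_MEF2A against MEF2A. Leaving out 1 library in turn gave 4 to 10 calls in YAP5SA against Control (3 to 6 core), with 4 without YAP5SA 1, 6 to 15 in YAP5SA against MEF2A (4 to 7 core), with 6 without YAP5SA 3, 0 to 3 in YAP5SA_MEF2A against Control and 0 to 6 in YAP5SA_MEF2A against MEF2A. Subunit medians then ran from -0.69 to -0.14, -0.46 to 0.31, -0.57 to -0.30 and -0.32 to -0.03 in the same order. The interaction with only the groups compared is the same fit and gave no other value. Depth limits 10 members, which had under 100 counts in some library.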

Other observations

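Ndufb1-ps is typed as a long non-coding RNA in GENCODE vM21 and is therefore no member, although RefSeq names a complex I gene there. It had 8.34 ± 7.02 CPM in YAP5SA libraries, 6.02 ± 1.70 CPM in MEF2A libraries, 5.83 ± 1.25 CPM in YAP5SA_MEF2A libraries and 9.72 ± 5.63 CPM in Control libraries (SD, n = 3, 4, 2 and 5), and edgeR called it in no comparison. Of 4 processed pseudogenes with Nduf symbols, Ndufab1-ps, Ndufb4c, Ndufs6b and Ndufa11b held 53, 53, 46 and 6 counts over all libraries.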
